A study of Homo sapiens with 13 samples.

Results

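The members are the 86 rows whose symbols start with TRBV, TRBD, TRBJ or TRBC, the segments of the T-cell receptor beta locus and their copies elsewhere, out of 56831 rows in each table. On chromosome 7 they are 61 V segments, 1 D segment, 14 J segments and 2 C segments, laid out over 514 kb of the hg38 build. The other 8 are V segments on chromosome 9, called orphons because they lie outside the locus, over 169 kb. The locus was chosen because TRBV27 and TRBVB were among the genes with the lowest treated against untreated values in H82, so every treated against untreated value of the members in H82 is a description, with no test. H146 was not used in that choice and was tested.

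H82 and H146 are established small cell lung cancer (SCLC) lines, H82 of the NEUROD1 subtype and H146 of the neuroendocrine subtype SCLC-A, both grown in RPMI with 10% serum. Treated cells received FHD-286, an inhibitor of the ATPases SMARCA2 and SMARCA4, at 100 nM for 14 days with the drug renewed every 48 h, and control cells were untreated. There were 6 H82 libraries of RNA (3 untreated, 3 treated) and 7 of H146 (3 untreated, 4 treated). Each subtype is represented by 1 line, and the labels do not say that libraries of a group came from separate cultures, so p-values measure only the spread between these libraries.

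The beta chain of the T-cell receptor is put together in developing T cells, when the RAG1 and RAG2 recombinase joins a V segment to a D and a J segment, and splicing then adds a C segment. Each V segment has a short leader exon and a main exon that encodes most of the variable domain, including its first complementarity-determining loops. An unrearranged V segment can also be transcribed by itself from its own promoter, which is known as germline transcription. SWI/SNF complexes, whose motors are SMARCA4 and SMARCA2, are known to act on chromatin of antigen receptor loci in lymphocytes.

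To show the segment with the most reads of the locus in untreated H82, the main exon of TRBV27 (ENSG00000211752.3) is printed from the hg38 reference, plus strand, chr7:142715567-142715861. Capitals mark the last 17 bases, which start at the codon of the conserved cysteine where the third loop begins in a rearranged chain.
TRBV27: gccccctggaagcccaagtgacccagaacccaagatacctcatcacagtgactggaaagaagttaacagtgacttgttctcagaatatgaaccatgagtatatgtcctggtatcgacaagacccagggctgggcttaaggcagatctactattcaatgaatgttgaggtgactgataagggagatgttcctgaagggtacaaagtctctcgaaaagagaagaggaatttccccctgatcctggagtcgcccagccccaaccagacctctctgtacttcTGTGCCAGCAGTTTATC
A recombination signal, made of a heptamer, a spacer of 23 bases and a nonamer, follows a V segment that can be rearranged, and the recombinase cuts at its heptamer. The next 39 bases are printed for TRBV27, TRBVB, TRBV5-4, TRBV25-1 and TRBV6-5, the 5 highest chromosome 7 segments in untreated H82, because an unrearranged segment keeps this border. Capitals mark the positions where a heptamer and a nonamer would lie.
TRBV27: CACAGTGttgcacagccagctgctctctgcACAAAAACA
TRBVB: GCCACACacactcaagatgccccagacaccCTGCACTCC
TRBV5-4: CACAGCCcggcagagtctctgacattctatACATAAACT
TRBV25-1: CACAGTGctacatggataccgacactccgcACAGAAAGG
TRBV6-5: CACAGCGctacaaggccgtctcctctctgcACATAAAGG
They lie on the plus strand at chr7:142715862-142715900, chr7:142711925-142711963, chr7:142463582-142463620, chr7:142671245-142671283 and chr7:142451449-142451487. The heptamer searched was CACAGTG, read on the segment's own strand in the 12 positions after its annotated end, and 17 of the 61 V segments on chromosome 7 (27.9%) hold it exactly. TRBV27 and TRBV25-1 are among them. Right after its end, TRBV6-5 has 6 of the 7 letters, TRBV5-4 has 5 and TRBVB, a pseudogene, has 2. Against the nonamer ACAAAAACC, the matching letters numbered 8 of 9 for TRBV27, 7 for TRBV5-4, 6 for TRBV25-1 and TRBV6-5 and 3 for TRBVB, beside a median of 6 over the 61 segments. The tables count reads per gene and do not show whether an RNA read runs across this border.

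In untreated H82 cells, RNA was counted over nearly the whole V cluster, while the D, J and C segments were listed at 0. From TRBV6-1 to TRBV28, a stretch of 393 kb with 54 V segments, 53 segments had a TPM (a level per transcript length, scaled to the same sum in each library) above 0 in at least 1 untreated library, and 30 had one in all 3. TRBV19, which is used by T cells against influenza, was the exception and was listed at 0. Of the 5 segments before this stretch, TRBV1, TRBV2, TRBV4-1 and TRBV5-1 were listed at 0 in untreated H82, and TRBV3-1 had 0.524 TPM in a single library. All 19 members after it, TRBV29-1, TRBD1, the 14 J segments, TRBC1, TRBC2 and TRBV30, were listed at 0 in every untreated and treated H82 library. For TRBC1, the first constant segment, 3 reads would have been 0.757 to 1.02 TPM in the untreated libraries. For TRBD1, which has 12 bases, 3 reads would have been 47.9 to 64.8 TPM, so a low level of the D and J segments was not detectable in this way.

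**Figure D1:**
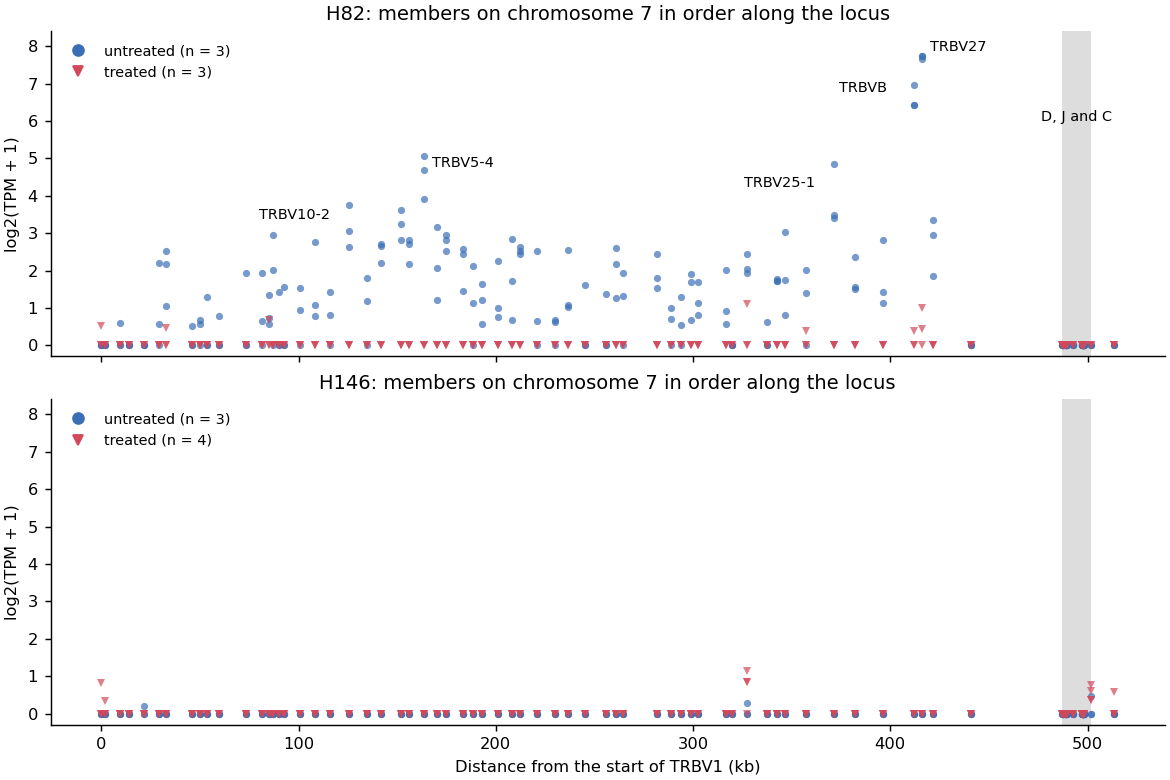
Levels of the chromosome 7 members along the locus, as log2(TPM + 1) against the distance in kb from the start of TRBV1, with 1 point for each segment and library (H82 above, H146 below). Untreated H82 (blue) has points above 0 for 53 of the 54 segments from TRBV6-1 to TRBV28, with 30 above 0 in all 3 libraries and the highest points at TRBV27, while the grey band with the D, J and C segments, the treated H82 libraries and all H146 libraries stay near 0.

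TPM values of these short genes were whole multiples of what 1 read is worth, so the reads behind each value were estimated from TPM and exon length. All 149 chromosome 7 values above 0 came out as whole numbers within 0.1 of a read. The V cluster held 905, 798 and 799 reads in the 3 untreated H82 libraries, against 8, 2 and 4 in the treated ones. The treated libraries were the deeper ones: genes matched to the annotation held an estimated 26.7 to 29.2 M reads there, against 14.6 to 19.7 M reads in untreated H82. On a segment of 400 bases, 1 read was worth 0.299 to 0.347 TPM in treated and 0.479 to 0.648 TPM in untreated libraries. More genes of any kind reached 1 TPM in untreated H82, 21223 to 21768 per library. In treated H82 the number was 15550 to 16629, and in H146 17472 to 19305.

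**Figure D2:**
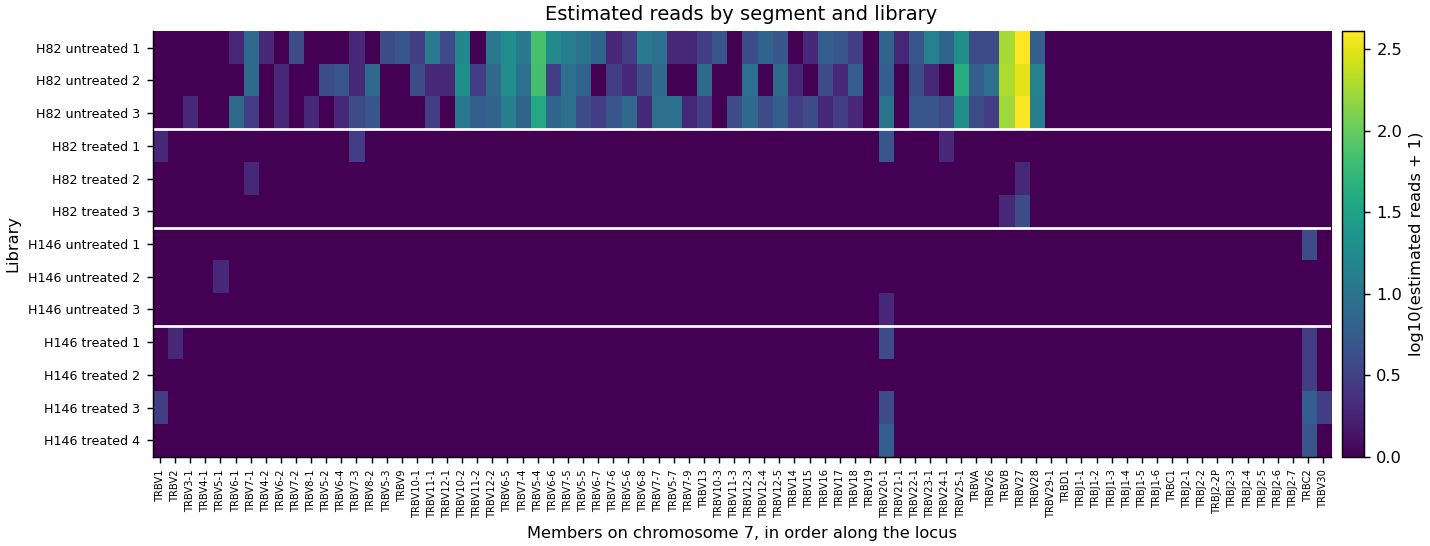
Estimated reads of each chromosome 7 member, in locus order, by library, as log10(reads + 1). In the upper 3 rows, untreated H82, 45, 38 and 45 of the 61 V segments hold reads, and the other 10 rows are nearly empty.

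TRBV27, annotated as a V gene, had the highest level of all members. Its TPM was 202, 213 and 211 in the untreated H82 libraries (209 ± 5.71, SD, n = 3) and 0, 0.359 and 0.989 in the treated ones (0.449 ± 0.501, SD, n = 3). These values correspond to 408, 318 and 398 reads without and to 0, 1 and 3 reads with FHD-286, and the groups did not overlap. On the log2(TPM + 1) scale the treated minus untreated difference was -7.23.

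TRBVB, a pseudogene 3.42 kb before TRBV27 on the same strand, was second. It had 84.6, 123 and 85.3 TPM in untreated libraries (97.5 ± 21.8, SD, n = 3). In treated libraries it had 0, 0 and 0.313 TPM, the last from a single read. The log2(TPM + 1) difference was -6.47. TRBV27 and TRBVB together took 65.0%, 64.0% and 71.1% of the reads of the V cluster in untreated H82, and no other member overlapped their range. Neither has a close relative among the members: the most similar exon sequence shared 71.7% of bases with TRBV27 and 62.7% with TRBVB, so near-identical copies among the members do not bear on these 2.

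TRBV5-4 had 24.7, 32.4 and 13.9 TPM in untreated H82, and TRBV25-1, the segment that invariant NKT cells use, had 9.56, 27.9 and 10.2 TPM. Both were listed at 0 in all 3 treated libraries, where 3 reads on TRBV5-4 would have been 0.659 to 0.765 TPM. Their untreated ranges overlapped each other, and that of TRBV25-1 also overlapped the next members in order. TRBV6-5 followed with 8.42, 11.4 and 5.99 TPM, and TRBV10-2 with 7.28, 12.5 and 5.18 TPM. The order TRBV27, TRBVB, TRBV5-4, TRBV25-1 held in each of the 3 untreated libraries, and the neighbours further down did not differ beyond their spread.

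The other 12 chromosome 7 segments that reached 5 TPM in a library were listed at 0 in every treated H82 library as well. TRBV28, the next segment after TRBV27, had 2.63, 9.26 and 6.75 TPM untreated. TRBV7-5, a pseudogene, had 6.67, 6.01 and 4.75 TPM, and TRBV7-4 had 5.53, 5.98 and 3.54 TPM. These 3 were above 0 in every untreated library. TRBV7-7 had 4.42, 5.23 and 4.72 TPM, the closest agreement between libraries in this group. TRBV12-2, a pseudogene, had 5.57, 5.28 and 3.57 TPM, and TRBV12-3 had 1.41, 5.07 and 3.50 TPM. The remaining 6 spread more widely between libraries. TRBV6-6 had 7.91, 1.34 and 3.17 TPM, and TRBV6-8 had 6.19, 2.28 and 0.600 TPM. TRBV23-1 had 7.18, 0.747 and 2.36 TPM. The pseudogenes TRBV26 and TRBV8-2 were similar. TRBV26 had 1.67, 6.03 and 1.19 TPM, TRBV8-2 had 0, 6.72 and 3.03 TPM, and TRBV11-1, a V gene, had 5.80, 0.712 and 1.12 TPM.

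**Figure D3:**
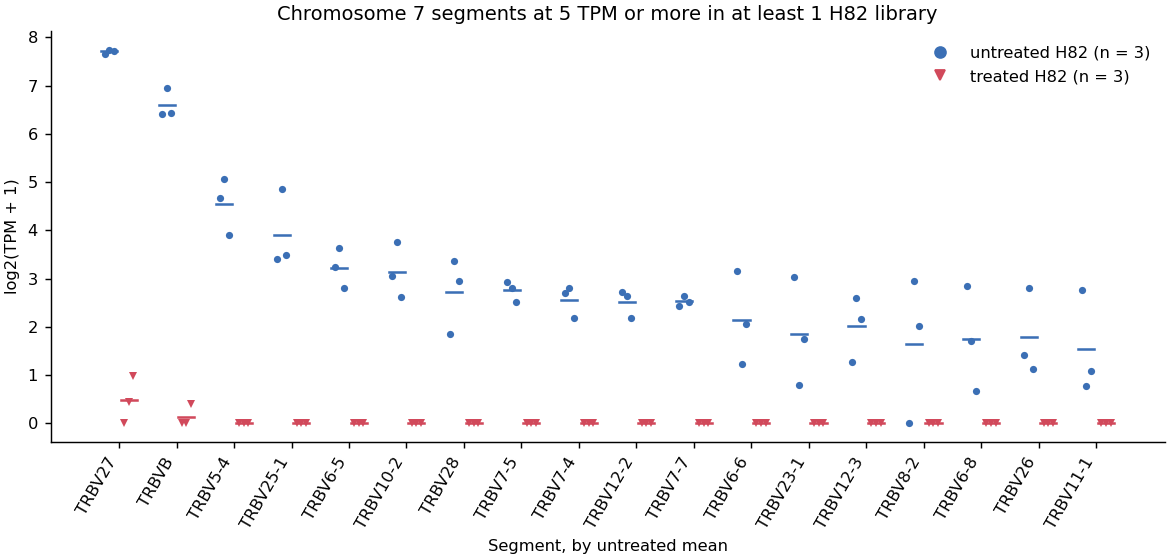
The 18 chromosome 7 segments at 5 TPM or more in at least 1 H82 library, as log2(TPM + 1), with points for libraries and bars for group means. In 16 of the 18 all treated points lie at 0, and TRBV27 and TRBVB have the highest untreated points.

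A further 30 chromosome 7 segments reached 1 TPM but not 5 TPM in H82, all of them in an untreated library. In the TRBV5 family the untreated ranges were 1.75 to 4.93 TPM for TRBV5-5, 0.675 to 3.73 for TRBV5-6, 0 to 4.77 for TRBV5-7, 0 to 2.85 for TRBV5-2 and 0 to 1.68 for TRBV5-3. In the TRBV6 family they were 0 to 3.57 TPM for TRBV6-1, 0 to 2.84 for TRBV6-4 and 0 to 3.34 for TRBV6-7. TRBV7-1 spanned 1.08 to 4.78 TPM, TRBV7-2 0 to 1.46, TRBV7-3 0.483 to 1.55 and TRBV7-6 0.489 to 2.09. The families did not stand apart: the median of the untreated means was 1.79 TPM over 6 TRBV5, 1.51 over 7 TRBV6 and 2.21 over 8 TRBV7 segments.

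Smaller families lay in the same range. TRBV9 spanned 0 to 1.97 TPM, TRBV10-1 0 to 1.89, TRBV10-3 0 to 2.08, TRBV11-2 0 to 2.51 and TRBV11-3 0 to 1.57. TRBV12-1 spanned 0 to 1.67 TPM, TRBV12-4 0 to 2.83 and TRBV12-5 1.87 to 4.42. In the single-member families, TRBV13 spanned 1.03 to 4.85 TPM, TRBV14 0 to 1.01, TRBV15 0 to 1.46, TRBV16 0.590 to 2.76, TRBV17 0.754 to 2.23 and TRBV18 0.478 to 3.03. Nearer TRBV27, TRBV20-1, which mucosal-associated invariant T cells often use, spanned 2.79 to 4.46 TPM, TRBV22-1 2.28 to 2.43, TRBV24-1 0 to 3.02 and the pseudogene TRBVA 1.82 to 4.10. Over the 52 segments of the stretch other than TRBV27 and TRBVB the median untreated mean was 1.66 TPM, with quartiles of 0.780 and 3.35 TPM. TRBV4-2, TRBV6-2, TRBV8-1, TRBV7-9 and TRBV21-1 had reads in untreated H82 but stayed under 1 TPM in every library, and TRBV1 had a single read, in treated replicate 1.

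Segments annotated as pseudogenes were not lower than V genes in median. From TRBV6-1 to TRBV28 the median untreated mean was 1.66 TPM over 42 segments annotated as V genes and 2.62 TPM over 11 annotated as pseudogenes. By position, the median in windows of 50 kb from TRBV1 was highest in the window from 400 to 450 kb that holds TRBVB, TRBV27 and TRBV28 (51.9 TPM over 4 segments, TRBV29-1 at 0 among them). The window from 150 to 200 kb, with TRBV6-5 and TRBV5-4, came next with 4.58 TPM over 8 segments. The first 2 windows were the lowest of those that held reads, with 0.0702 TPM over 8 and 0.656 TPM over 9 segments. The untreated libraries ranked the 54 segments alike only in part, with Spearman correlations across segments of 0.526 to 0.616. Segments share their libraries and their depth, so these are descriptions. Exon sequences of 31 of the 61 V segments share at least 90% of bases with another member, and 10 share at least 95%, so reads of the low segments may be split between relatives in a way the tables do not show.

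With treatment, 29 of the 48 chromosome 7 members that reached 1 TPM in H82 had all 3 treated libraries below all 3 untreated ones. Together with 1 orphon this made 30 of 50 members. Among all 26748 genes that reached 1 TPM in a library of H82 the share was 44.8%. No member had all treated libraries above all untreated ones, where the share over all genes was 14.1%. Of the 19 chromosome 7 members that overlapped, 18 had an untreated library at 0. The remaining one was TRBV7-3, with 0.602, 0 and 0 TPM treated.

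Among chromosome 7 members with an untreated mean of 1 to 10 TPM, 30 of 33 were listed at 0 in every treated library, beside 16.5% of 11658 genes in the same bracket. Any treated read was found for 6 of the 48 members. Besides TRBV27 and TRBVB these were TRBV20-1 with 1.16 TPM, the highest treated value of any chromosome 7 member, TRBV7-3, TRBV7-1 with 0.365 TPM and TRBV24-1 with 0.314 TPM, each in 1 library. The members were chosen on this contrast, so nothing is read from these shares. In bulk RNA, fewer cells with RNA from the locus and less RNA per cell cannot be told apart.

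**Figure D4:**
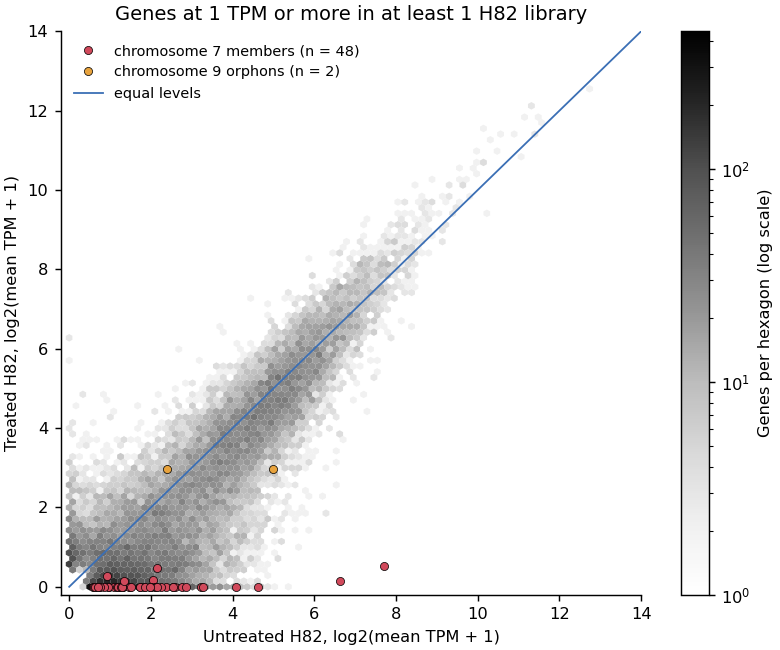
Treated against untreated mean level in H82, as log2(mean TPM + 1), for all genes at 1 TPM or more in at least 1 library (grey hexagons, darker for more genes) and for the 50 members among them (coloured points). The red chromosome 7 members lie along the lower edge, far to the right for TRBV27 and TRBVB, and 2 orange orphons lie within the cloud.

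The chromosome 9 orphons differed from the locus in both lines. Their exon sequences share 92.5% to 96.1% of bases with the chromosome 7 segment of the same number. TRBV26OR9-2, a pseudogene, had 26.8, 36.3 and 28.6 TPM in untreated H82 and 6.12, 7.58 and 6.96 TPM in treated H82, without overlap. This was 41 reads in each untreated library and 15, 16 and 16 reads in the treated ones. TRBV20OR9-2 had 4.61, 3.74 and 4.43 TPM untreated and 10.9, 7.34 and 2.15 TPM treated, with overlap. Its TPM did not resolve into whole reads. The other 6 orphons stayed below 1 TPM in all H82 libraries.

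In H146 the chromosome 7 locus was close to silent with and without FHD-286. Of its 78 members, TRBV20-1 alone reached 1 TPM, in a single treated library. V segments held 0, 1 and 1 reads in the untreated and 4, 0, 7 and 5 reads in the treated libraries. TRBC2, the second constant segment, had 0.382, 0 and 0 TPM untreated and 0.290, 0.281, 0.708 and 0.528 TPM treated, or at most 5 reads. TRBV20-1 had 0, 0 and 0.211 TPM untreated and 0.798, 0, 0.779 and 1.21 TPM treated. It shares 96.1% of bases with the orphon TRBV20OR9-2, and whether its few reads came from that orphon was not tested. TRBV1, TRBV2 and TRBV30 had 1 or 2 reads in 1 treated library each, and TRBV5-1 had 1 read in an untreated one. TRBV27 and TRBVB, the leading segments of H82, were listed at 0 in all 7 libraries of H146. Across both lines, 19 members were listed at 0 in all 13 libraries, among them TRBC1, TRBD1 and the 14 J segments.

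**Figure D5:**
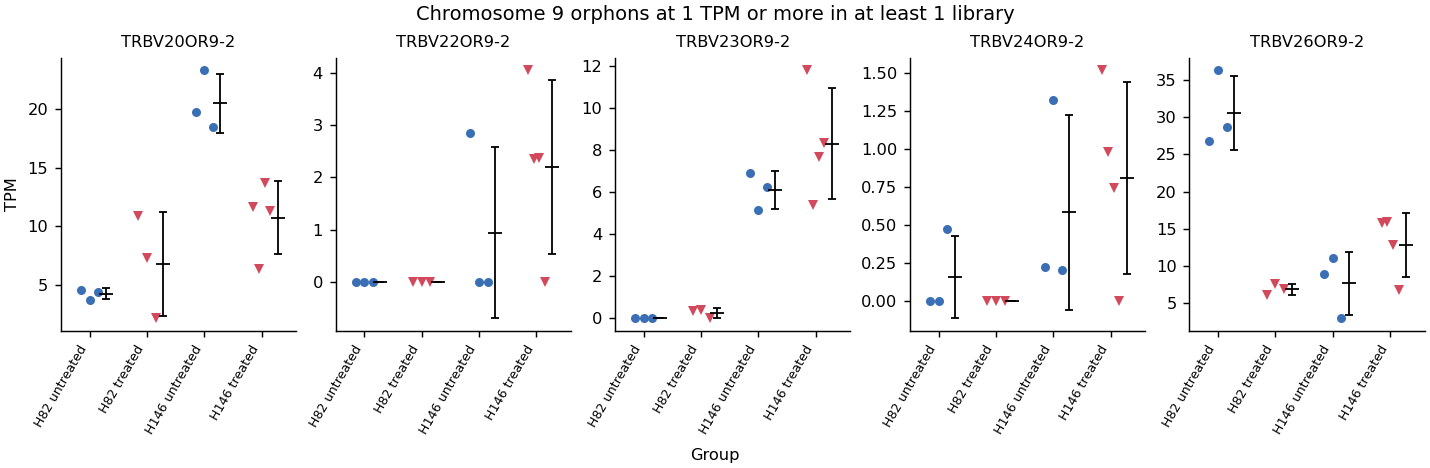
TPM of the 5 chromosome 9 orphons at 1 TPM or more in at least 1 library, by group, with 1 point for each library and the mean with SD beside it (n = 3, 3, 3 and 4). TRBV20OR9-2 is higher in untreated than in treated H146 without overlap, and TRBV26OR9-2 is higher in untreated than in treated H82.

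Orphons made up all of the members that could be fitted in H146, where 4 of the 86 passed the filter of at least 1 TPM in at least 3 libraries. TRBV20OR9-2, annotated as a V gene (ENSG00000205274.5, chr9:33617845-33618508), fell with treatment. It had 19.7, 23.3 and 18.5 TPM untreated (20.5 ± 2.50, SD, n = 3) and 11.6, 6.40, 13.7 and 11.3 TPM treated (10.7 ± 3.08, SD, n = 4). Every treated library was below every untreated one, and the log2 fold change on the log2(TPM + 1) scale was -0.91 (SE 0.23, limma with Benjamini-Hochberg adjustment over all genes, adjusted p = 0.0131). Without untreated replicate 2 the adjusted p was 0.0545 (limma). Over all 19585 genes tested in H146, 15.5% were called lower and 32.5% higher.

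The other 3 did not pass the threshold of 0.05. TRBV26OR9-2 had 8.89, 11.1 and 2.98 TPM untreated and 15.7, 16.0, 12.8 and 6.83 TPM treated, with overlap, and its log2 fold change was 0.76 with an SE of 0.42 (limma adjusted p = 0.160). Its treated against untreated difference in H82 had the opposite sign (-1.99 on the log2(TPM + 1) scale), and the difference between the lines was not tested. TRBV23OR9-2 had 6.91, 5.15 and 6.25 TPM untreated and 11.8, 5.40, 7.68 and 8.37 TPM treated (log2 fold change 0.35, SE 0.24, limma adjusted p = 0.245). TRBV22OR9-2 had 2.84, 0 and 0 TPM untreated and 4.04, 2.35, 2.37 and 0 TPM treated (log2 fold change 0.81, SE 0.64, limma adjusted p = 0.321), from at most 5 reads. The median log2 fold change of the 4 orphons was 0.56, beside 0.25 over all genes tested.

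Below the filter, 3 members had a TPM above 0 in at least 4 of the 7 libraries of H146. They were compared one by one with a two-sided exact permutation test. With 3 against 4 libraries its smallest one-sided p is 0.0286, and its two-sided p cannot fall under 0.05. These 3 tests, not adjusted for their number, therefore could not reach the threshold, and nothing is concluded from them. The mean log2(TPM + 1) was higher with treatment by 0.61 for TRBV20-1 (exact p = 0.229), by 0.37 for TRBC2 (exact p = 0.171) and by 0.19 for TRBV24OR9-2 (exact p = 0.686). TRBV24OR9-2 ranged from 0.201 to 1.32 TPM untreated and from 0 to 1.52 TPM treated.

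Genes around the members were read for context. On chromosome 7 the members enclose the trypsinogen genes PRSS1 and PRSS2, which lie between TRBV29-1 and TRBD1 and reached at most 1.07 and 1.32 TPM in any library. Before TRBV1, PRSS58, a serine protease gene, had 2.82, 1.35 and 3.72 TPM in untreated and 0.414, 0.360 and 0.442 TPM in treated H82 (log2 fold change -1.31, limma adjusted p = 0.00648). KEL, the Kell blood group gene beyond the constant segments, had 10.0, 5.93 and 6.54 TPM in untreated and 1.41, 0.663 and 1.12 TPM in treated H82 (log2 fold change -2.03, limma adjusted p = 0.000811). Other neighbours were low in H82. MGAM had 0.665 to 1.10 TPM untreated and 0 to 0.0444 TPM treated, and TAS2R38 0.168 to 2.27 and 0 TPM. C7orf34 had 0.843 to 2.29 TPM untreated and 0 to 0.259 TPM treated. EPHB6 went the other way, with 0.0360 to 0.341 TPM untreated and 0.495 to 1.19 TPM treated. MTRNR2L6 overlapped, with 0.179 to 1.46 and 0.264 to 1.34 TPM. The 17 neighbours in the tables lie between or beside the members on chromosome 7, or between the orphons on chromosome 9. In H82 5 of them were tested, of which PRSS58 and KEL are the only ones on chromosome 7. Of the 5, 4 passed the threshold as lower and 0 as higher (median log2 fold change -1.31), or 3 and 1 under median-of-ratios scaling. By limma 45.5% of all genes tested in H82 were called lower and 13.1% higher, with a median of -0.56. In H146 1 of 4 tested neighbours was called, MGAM2, a maltase gene and the only 1 of the 4 on chromosome 7. It had 3.23 to 5.71 TPM untreated and 0.0808 to 0.172 TPM treated (log2 fold change -2.27, limma adjusted p = 9.33e-05).

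Segments of the other antigen receptor loci did not share 1 direction in H82. Over all 26748 genes at 1 TPM in an H82 library, 44.8% had all treated libraries below the untreated ones and 14.1% above. The counts of each locus are small beside these shares and are descriptions. In the alpha locus, 17 of 115 segments reached 1 TPM, of which 1 had all treated libraries below and 5 had all treated libraries above the untreated ones. TRAC, its constant segment, was listed at 0 in all untreated libraries and had 2.57, 4.55 and 6.80 TPM in treated H82 (limma adjusted p = 0.000698), whereas TRAV5 fell from 6.63 to 7.08 TPM to 0.679 to 1.81 TPM (log2 fold change -1.78, limma adjusted p = 0.00105). In the gamma locus 5 of 9 such segments lay below and 1 above. TRGV2 was listed at 0 in every treated library, from 2.26 to 5.24 TPM untreated (limma adjusted p = 0.000833), and TRGV7 rose from 0.735 to 1.16 TPM to 1.97 to 4.74 TPM (log2 fold change 1.18, limma adjusted p = 0.0121). Among immunoglobulin lambda segments, 8 of 12 lay below and 0 above, with IGLV1-40 lowest in fold change (-2.87, limma adjusted p = 0.000640). The lambda segments were taken by symbol, and the 8 include the orphons IGLVIVOR22-1 and IGLVIVOR22-2. Heavy and kappa segments were mostly under 1 TPM in H82, with 8 of 207 and 3 of 108 reaching it. IGKV1OR2-108, an orphon by its symbol, alone was called among them (log2 fold change -1.24, limma adjusted p = 0.00893).

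H146 showed another set of receptor segments. Heavy-chain segments led in number, with 62 of 207 at 1 TPM or more. Of the 40 tested, 7 were called lower and 11 higher, beside shares of 15.5% and 32.5% over all genes tested in H146. IGHV4-55 fell from 52.4 to 65.2 TPM to 0.874 to 2.99 TPM (log2 fold change -4.33, limma adjusted p = 1.74e-05), and IGHV3-33 rose from 1.82 to 3.56 TPM to 6.92 to 30.9 TPM (log2 fold change 2.57, limma adjusted p = 0.00265). TRGV7 was listed at 0 untreated and had 0.302 to 3.65 TPM treated (limma adjusted p = 0.0144). Among lambda segments the orphon IGLVIVOR22-1 was listed at 0 untreated and had 1.34 to 4.43 TPM treated (limma adjusted p = 0.00117), and IGLV6-57 fell (log2 fold change -1.22, limma adjusted p = 0.0103).

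Most of the 17 T-cell genes stayed under 1 TPM in both lines. CD2 and CD3E, the latter part of the receptor complex, were listed at 0 in all H82 libraries, while CD3D was at most 0.441 TPM. The summed level of the 17 T-cell genes was 8.67 to 11.6 TPM in untreated and 2.44 to 5.94 TPM in treated H82, with 3 of them at 1 TPM or more in a library. CD4 had the highest level of them in untreated H82 and fell from 4.92 to 5.94 TPM to 0.303 to 1.38 TPM (log2 fold change -1.89, limma adjusted p = 0.00112). In H146 the sum was 36.1 to 37.9 TPM untreated and 17.8 to 22.3 TPM treated, with 5 of them at 1 TPM or more in a library. The sum hides opposite changes. Of the 5 tested in H146, 1 was called lower, LCK, and 2 higher, CD4 and CD247 (median log2 fold change 0.57). The shares over all genes tested in H146 were 15.5% and 32.5%. LCK, a kinase of the receptor complex, fell there from 27.3 to 30.3 TPM to 3.12 to 5.59 TPM (log2 fold change -2.51, limma adjusted p = 5.00e-05). CD247, the zeta chain, rose from 0.813 to 1.13 TPM to 4.33 to 8.03 TPM (log2 fold change 1.81, limma adjusted p = 0.000312).

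B-cell and pan-leukocyte genes differed between the lines. Summed over 5 B-cell genes, the level was 9.85 to 13.1 TPM in untreated and 1.25 to 1.78 TPM in treated H82, and PAX5, a B-cell and neural transcription factor, fell in H82 (log2 fold change -2.45, limma adjusted p = 0.000527) and rose in H146 (1.36, limma adjusted p = 0.000669), where the B-cell sum was 6.83 to 10.3 TPM untreated and 18.1 to 25.1 TPM treated. The 4 leukocyte genes summed to 7.57 to 11.8 TPM in untreated and 4.73 to 8.80 TPM in treated H82, where CD53 fell (log2 fold change -1.92, limma adjusted p = 0.00104). In H146 the leukocyte genes summed to 29.8 to 33.9 TPM untreated and 22.1 to 40.5 TPM treated, and LAPTM5 rose from 3.57 to 4.33 TPM to 6.77 to 14.2 TPM (limma adjusted p = 0.0117). The 7 neuroendocrine genes, which mark the labelled cell type, summed to 1038 to 1139 TPM in untreated and 1107 to 1450 TPM in treated H82. The sum hides opposite changes, since CHGA, SYP and NEUROD1 were called lower in H82 and UCHL1 and INSM1 higher. UCHL1 alone had 384 to 429.5 TPM untreated and 808 to 1054 TPM treated. In H146 the sum was 3380 to 3868 TPM untreated and 2703 to 2949 TPM treated. In H82 CHGA fell and INSM1 rose (log2 fold changes -2.36 and 2.19, limma adjusted p = 0.00574 and 0.0498), with 296 TPM of INSM1 in treated replicate 2 against 32.1 and 33.9 TPM in the other two. In H146 CHGB rose and INSM1 fell (log2 fold changes 1.63 and -0.50, limma adjusted p = 0.000186 and 0.0219). The part of any of these genes in the values of the V segments was not tested.

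The recombinase genes were low in both lines, with RAG1 at most 2.18 TPM in any library. RAG1 ranged from 0.524 to 0.712 TPM in untreated and 0.212 to 0.306 TPM in treated H82, and RAG2 and DNTT, which adds bases at the joints, were at most 0.889 and 0.658 TPM. Most end-joining genes were expressed, but NHEJ1 had at most 1.75 TPM in H82 and 0.354 TPM in H146. Of 6 tested genes of this list 4 were called lower in H82 and 0 higher (median log2 fold change -0.90), or 2 and 1 under median-of-ratios scaling, with LIG4, the ligase, lowest (log2 fold change -1.24, limma adjusted p = 0.000954). In H146 2 of 7 were called higher and 0 lower, or 1 and 1 under that scaling, RAG1 most (log2 fold change 0.72, limma adjusted p = 0.0168). Without that scaling, the shares over all genes tested were 45.5% lower and 13.1% higher in H82, and 15.5% and 32.5% in H146.

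Transcription factors known to act at T-cell receptor enhancers were called in both directions in each line. In H82 1 of 10 tested was called lower and 1 higher (median log2 fold change -0.14), or 1 and 3 under median-of-ratios scaling. RUNX2 fell from 11.2 to 12.5 TPM to 1.23 to 2.04 TPM (log2 fold change -2.36, limma adjusted p = 0.000222) and GATA3 rose from 0.279 to 0.715 TPM to 2.34 to 5.49 TPM (log2 fold change 1.53, limma adjusted p = 0.00421). In H146, where the locus was near 0, 3 of 10 were called lower and 4 higher (median 0.58), ETS1 with the largest fall (log2 fold change -3.09, limma adjusted p = 0.000647) and LEF1 with the largest rise (1.27, limma adjusted p = 0.000145). Over all genes tested, 45.5% were called lower and 13.1% higher in H82, and 15.5% and 32.5% in H146, so these small counts are descriptions. The part of these factors was not tested.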

How the data were processed

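RNA-seq of 13 libraries was analysed. The authors used STAR for alignment to hg38 and for gene counts on GENCODE release 28, and compared groups with DESeq2. The submitters' processing notes also name Trim Galore 0.4.4, with no role given. They deposited TPM values, 1 table per line. How strand and gene length were handled is not given in the sources used here. No column of per-sample values was left unmatched to a sample, and reads were not analysed here.

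Positions, classes and exon lengths came from GENCODE release 44, where all 86 members matched. Reads behind a value were estimated as TPM times exon length over the most frequent such product in the library, which stands for 1 read, and were called whole within 0.1. They cover counting error only.

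Because the files hold TPM and not counts, limma 3.58.1 in R 4.3.3 (lmFit, eBayes with trend) was fitted to log2(TPM + 1) in each line, with no covariate, for genes at 1 TPM or more in at least 3 libraries. P-values were two-sided and adjusted by Benjamini-Hochberg over all genes tested, with a threshold of 0.05. Lower members of H146 were compared by an exact permutation test. All fold changes are treated minus untreated. TPM was not scaled further between libraries: the median log2 fold change was -0.56 over the genes tested in H82 and 0.25 in H146. Under median-of-ratios scaling the calls were 6499 lower and 4793 higher in H82 (8996 and 2588 without it), and 4917 and 4167 in H146 (3033 and 6356). The scripts were tested on simulated data. Exon sequences were aligned with Biopython 1.88, and identity is matching bases over the length of the shorter sequence.

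Named were all members that reached 1 TPM in a library, with each value where they reached 5 TPM, both C segments, neighbours at 1 TPM, and the largest rise and fall called in each list. Some genes that this rule names are not reported here. The members and lists were chosen with earlier results of these data known.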

Additional observations from a re-analysis of the deposited data

Results flagged for a closer look

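The 34 genes looked at were the members that reached 1 TPM in H146, TRBC2, neighbours at 1 TPM and the genes with the largest changes called in each list in H146. Among the 34, 3 had a treated H146 library far from the other 3, by the gap to the nearest library over the whole range. Chance alone flags about 1 of 20 groups in this way. The value was 0.977 for MGAM2, with 0.0808 TPM in treated replicate 1. It was 1 for PRSS1, which was listed at 0 in 3 libraries and had 0.107 TPM in treated replicate 4. It was 0.969 for TAS2R38, listed at 0 in treated replicate 4. No member was among them. This rule looks for a single library apart and cannot flag libraries that fall into pairs. ETS1 had 14.6, 13.8, 4.34 and 4.37 TPM in treated H146 replicates 1 to 4, and CHGB had 271, 284, 201 and 194 TPM. TRBV20OR9-2, with 11.6, 6.40, 13.7 and 11.3 TPM, did not split in this way. How many genes do so was not counted, and no fit or exact test of H146 included such a grouping.

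Of 91 genes compared between the lines, 10 had every treated library on one side in H82 and on the opposite side in H146. The 91 were members, neighbours and the genes with the largest changes called in each list, so some were chosen for a change. The share over all genes was not computed, so the count is a description only. The log2(TPM + 1) differences in H82 and H146 were -2.03 and 0.52 for KEL, -0.87 and 0.48 for MGAM, -2.45 and 1.36 for PAX5, and 1.53 and -0.51 for GATA3. They were -1.92 and 0.85 for CD53, 2.19 and -0.50 for INSM1, -0.39 and 0.72 for RAG1, and -1.89 and 0.69 for CD4. They were -0.37 and 1.81 for CD247 and -1.14 and 1.96 for IGLVIVOR22-1. The difference between the lines was not tested for any of them.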

How the results depend on the processing

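Many segments of H82 rest on few reads per library, which limits their levels and order. Of 508 values of 50 members in H82 under the alternatives, 443 moved by less than the spread between replicates and 65 moved by more, and 1 changed sign (TRBV20OR9-2, -0.03 without treated replicate 1). The count of members with all treated libraries below was 30 to 36 when 1 library was left out. The count with all treated libraries above was 0, but 1 after quantile normalization and 0 to 1 when 1 library was left out (1 without treated replicate 3, TRBV20OR9-2). In H146 the count of members past the threshold was 1, and 0 to 2 when 1 library was left out. It was 0 without untreated replicate 2, and 2 without treated replicate 2, where TRBV23OR9-2 had 0.52 (limma adjusted p = 0.0461). With the replicate number as a block it was 3, since TRBV22OR9-2 had 1.30 and TRBV26OR9-2 1.01 (limma adjusted p = 0.0206 and 0.0297), and the block changed no other call of a member. The numbers do not pair the libraries: deviations of same-numbered libraries correlated from -0.11 to 0.027. Genes of the lists called higher in H82 numbered 7, but 13 under median-of-ratios scaling and 13 after quantile normalization, both chosen after seeing the data. The causes were not tested.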
